A study of Mus musculus and Mus musculus
Rattus norvegicus with 30 samples.

Results

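Genes that mark or control the epithelial and mesenchymal states were followed, 10 in all, through every RNA-seq library of a study of the transcription factor Cdx2 in mouse embryonic stem cells (mESCs) and in RMES cells. They were 3 classical cadherins (Cdh1, Cdh2 and Cdh3), the epithelial adhesion molecule Epcam, the intermediate filament gene Vim and 5 transcription factors (Snai1, Snai2, Zeb1, Zeb2 and Twist1). The members were chosen by name, with the direction of Cdh2 in the 2 cell types already known, so every comparison of induced cells with those labelled WT is given here as a description. It carries no p-value, and the number of the genes past the threshold used for all genes is given only beside the share of all genes that passed it. All 10 of 10 genes passed the filter on low counts in each table, and they stand among 19919 genes counted in the mESC libraries.

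RMES cells are a fusion of a haploid mouse and a haploid rat embryonic stem cell, so that each gene is read from a mouse allele and a rat allele in the same nucleus. Both cell types were grown in N2B27 medium with the MEK inhibitor PD0325901, the GSK3 inhibitor CHIR99021 and LIF. The induced cells carried a doxycycline-inducible lentiviral Flag-tagged Cdx2. The induced proteins were mouse Cdx2 (mCdx2), rat Cdx2 (rCdx2), and, in mESCs, 7 mutants of rCdx2 that carry mouse-specific amino acid changes 1, 2 and 3 in the DNA-binding domain, singly (R1, R2, R3) or together (R12, R13, R23, R123). Doxycycline was given for 48 h for mCdx2 and rCdx2, and the time for the mutants is not given in the sources used here. The labels name the reference libraries only WT, while the paper compares mESCs with and without doxycycline. Whether the WT cells carried the construct is not given. The effects of the vector and of doxycycline therefore cannot be told apart from that of Cdx2. The mESC RNA-seq had 2 libraries for each of 10 conditions (WT and 9 induced). RMES RNA-seq had 2 libraries labelled WT, 1 with mCdx2 and 1 with rCdx2. ATAC-seq had 1 WT and 1 mCdx2 library of mESCs, and the Cdx2 ChIP-seq had 1 library for each protein in each cell type. The sources used here do not say how many stable lines were made for each construct, or whether its replicates came from the same line. Line and construct therefore cannot be told apart, and p-values measure only the spread between these libraries, which may be technical.

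Cadherins join neighbouring cells through calcium-dependent contacts between their outer domains and are tied to actin inside the cell by catenins. In an epithelial-mesenchymal transition, cells lower E-cadherin (Cdh1) and Epcam and raise N-cadherin (Cdh2) and vimentin (Vim), and the factors Snai1, Snai2, Zeb1, Zeb2 and Twist1 are known as repressors of Cdh1 or drivers of that switch. Mouse embryonic stem cells are epithelial and hold together through E-cadherin. Cdx2 is the homeobox factor of the trophectoderm, itself an epithelium.

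The mESC libraries held 74960057 to 94686029 counts in WT and 12698443 to 24315929 in induced cells, so that low genes were measured less precisely in induced cells. Library totals of the RMES cells were 36166038 to 41418817 on the mouse genome and 29453412 to 35249756 on the rat genome. Levels are in CPM, counts scaled to a common library size after TMM normalization. Cdx2 stood at 1.21 and 1.36 CPM in the WT mESC libraries and at 37.2 to 146.5 CPM in the 18 induced ones. All mESC reads were aligned to the mouse genome, so Cdx2 from rCdx2 and its mutants was counted on the mouse gene and may be undercounted. In RMES cells it went against the label: the libraries labelled WT held Cdx2 at 126.6 and 129.0 CPM on the mouse allele and at 439.5 and 452.7 CPM on the rat allele. The mCdx2 library had 967.1 CPM of mouse Cdx2 and 47.2 CPM of rat Cdx2, and the rCdx2 library had 4.45 CPM of mouse Cdx2 and 879.6 CPM of rat Cdx2. Every RMES direction below is therefore drawn against libraries that are labelled WT but hold Cdx2 reads. The summed level of 8 pluripotent cell markers was 5415 to 5519 CPM in WT mESCs and 5661 to 5768 CPM on the mouse allele of the RMES libraries labelled WT. The sum of 7 primitive endoderm markers was 44.2 to 46.8 CPM in the first and 231.8 to 238.7 CPM in the second. This sum does not stand for each marker. On that allele it was 50.6 and 53.0 CPM after induction, although 5 of the 7 genes were called higher and 1 lower.

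The centres of 4 Cdx2 ChIP peaks near these genes are shown as sequence because they mark where the factor was found beside genes whose level or chromatin differed. Each is the central 200 bases of an mESC ChIP peak, read on the forward strand of RefSeq's GRCm38 (mm10) genome, and capitals mark TTTATG, the core of the Cdx2 site, which was searched on both strands as TTTATG or CATAAA.
Epcam, −9955 bp from the gene start (negative is upstream), chr17:87625925-87626124: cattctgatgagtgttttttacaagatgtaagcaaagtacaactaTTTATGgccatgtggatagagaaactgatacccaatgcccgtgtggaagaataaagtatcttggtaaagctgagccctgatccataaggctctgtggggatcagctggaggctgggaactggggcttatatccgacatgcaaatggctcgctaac
Vim, −15486 bp from the start, chr2:13558342-13558541: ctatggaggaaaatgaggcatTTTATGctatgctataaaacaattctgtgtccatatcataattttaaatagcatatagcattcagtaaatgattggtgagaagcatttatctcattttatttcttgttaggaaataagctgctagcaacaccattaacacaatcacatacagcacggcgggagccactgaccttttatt
Snai2, −23863 bp from the start, chr16:14681890-14682089: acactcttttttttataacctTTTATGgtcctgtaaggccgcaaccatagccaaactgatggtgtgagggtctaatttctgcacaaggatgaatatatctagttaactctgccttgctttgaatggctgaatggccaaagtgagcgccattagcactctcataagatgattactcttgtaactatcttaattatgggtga
Zeb2, 19985 bp into the gene, in an intron, chr2:45097311-45097510: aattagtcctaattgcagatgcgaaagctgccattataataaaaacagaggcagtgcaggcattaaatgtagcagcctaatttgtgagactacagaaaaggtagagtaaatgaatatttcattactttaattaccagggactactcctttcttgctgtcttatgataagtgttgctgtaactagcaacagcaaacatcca
The Zeb2 window, from the peak with the second most reads within 30 kb of a member's start, held neither form of the motif. Nor did the 3 Cdh2 windows, which are not shown and include the peak with the most reads, at −1806 bp. Over all member peaks 6 of 17 windows (35.3%) held it, beside 40.6% of the 91665 ChIP windows and 10.4% of the 122350 ATAC windows of the same length. A match is a description of the letters and not of a bound site.

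Among the adhesion genes, Cdh2 was higher and Cdh3, Epcam and Vim were lower in all induced mESC libraries, whereas Cdh1 stayed near its WT level in the mutants and was lower with intact Cdx2. Cdh1 (E-cadherin, chr8:106603351-106670246) was at 440.0 and 442.6 CPM in WT. With mCdx2 it was at 319.3 and 325.2 CPM, and with rCdx2 at 313.5 and 315.6 CPM. The 14 mutant libraries ran from 432.7 to 489.2 CPM, so that they spanned the WT values while all 4 intact libraries lay below them. Against WT the log2 fold change was −0.45 with mCdx2, −0.49 with rCdx2 and −0.07 ± 0.04 (SE) for the mean of the 9 conditions.

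Cdh2 (N-cadherin, chr18:16588877-16809246), the cadherin of neural and mesenchymal cells, was at 4.54 and 5.21 CPM in WT mESCs. The 18 induced libraries held 8.12 CPM at the lowest, 20.7 CPM at the median and 27.97 CPM at the highest. All 18 were above both WT libraries, with a log2 fold change of 1.86 ± 0.14 (SE) for the mean of 9 conditions. Cdh3 (P-cadherin, chr8:106510891-106557297), the neighbour of Cdh1 and a cadherin of placenta and skin, was at 20.04 and 20.17 CPM in WT and at 4.42, 7.06 and 8.54 CPM (lowest, median and highest) in induced cells. It was below WT in 18 of 18 libraries (log2 fold change −1.59 ± 0.09, SE). Epcam, a membrane protein that supports epithelial contacts (chr17:87635979-87651129), was at 93.3 and 95.9 CPM in WT and at 53.7, 66.8 and 74.3 CPM in induced cells (−0.53 ± 0.06, SE). Each of these 3 genes thus separated induced from WT cells without overlap, as did 50.3% of all genes tested.

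Vim (chr2:13573927-13582826), which encodes the main intermediate filament of mesenchymal cells, was at 307.3 and 310.6 CPM in WT. Induced cells held 45.8, 62.4 and 103.8 CPM (lowest, median and highest), all below WT (log2 fold change −2.18 ± 0.05, SE). The sum of 10 fibroblast markers moved the same way, from 121.0 and 123.2 CPM in WT to 38.2 to 62.8 CPM in induced cells, and 5 of the 9 markers tested were lower by the same threshold. Of the collagen genes among the markers, Col1a2 averaged 10.9 CPM in WT and 0.154 CPM in induced cells, and Col3a1 averaged 4.15 CPM and 0.0155 CPM. Lum, near the floor, had at most 12 counts in WT and 0 in all 18 induced libraries. Most of the sum was Fbln1 (82.3 and 42.0 CPM, means). Loxl1 changed little (1.10 and 0.93 CPM), and Pdgfrb went the other way (4.28 and 5.53 CPM). In bulk RNA, fewer cells of a type and less RNA per cell cannot be told apart, and the part of these markers in the Vim values was not tested.

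The transcription factors did not move as a group. Snai2 (Slug, chr16:14705852-14709385) was at 0.365 and 0.510 CPM in WT and at 1.30, 1.87 and 2.96 CPM in induced cells, and Zeb1 (chr18:5591860-5775467) was at 19.8 and 21.8 CPM and then at 40.3, 47.4 and 55.6 CPM. Both were above WT in 18 of 18 libraries (2.17 ± 0.24 and 1.20 ± 0.08, log2 ± SE). Zeb2 (chr2:44983632-45117395), the other ZEB family repressor, was at 0.651 and 0.708 CPM in WT. It reached 5.06 to 7.28 CPM with intact mCdx2 or rCdx2 (log2 fold change 3.16 and 3.18), but only 0.481 to 1.38 CPM in the mutants. Snai1 (Snail, chr2:167538195-167542814) was at 3.61 and 4.08 CPM in WT, at 3.45 to 4.32 CPM with intact Cdx2 and at 0.893 to 4.55 CPM in the mutants. Twist1 (chr12:33957671-33959829), a bHLH factor, was at 0.722 and 0.947 CPM in WT and at 0.520 to 1.88 CPM in induced cells. Snai1, Zeb2 and Twist1 overlapped between WT and induced cells. Beside these factors, the sum of 7 primitive endoderm markers was 83.4 to 118.7 CPM in induced mESCs. That of 8 trophoblast stem cell markers was 150.4 to 283.8 CPM (171.7 and 172.7 CPM in WT), and that of 8 pluripotent cell markers 2679 to 4711 CPM. For the mean of 9 conditions, 4 of 7 primitive endoderm and 3 of 7 trophoblast stem cell markers tested were called higher, and 0 lower. Of the pluripotent cell markers, 3 of 8 were called lower and 0 higher. The part of these markers in the levels was not tested.

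**Figure D1:**
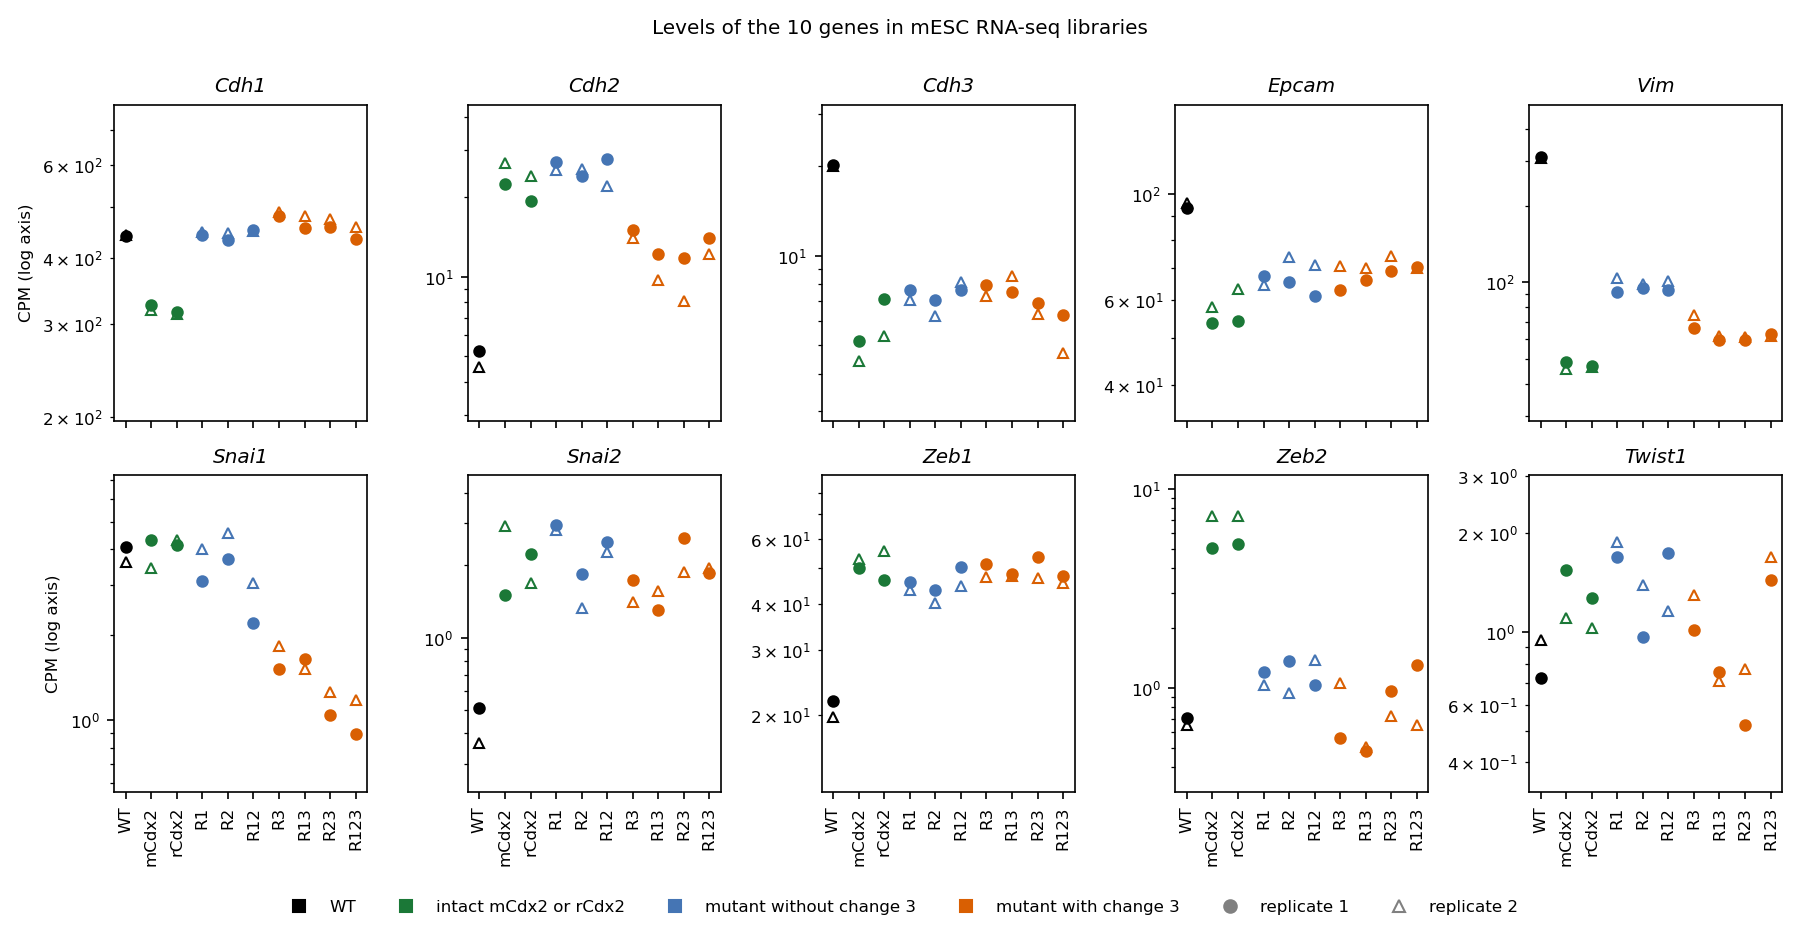
Level of each gene in the 20 mESC RNA-seq libraries (CPM, log axis, scaled per panel), by condition on the x axis, where R1 to R123 are the rCdx2 mutants. Points are single libraries, filled for replicate 1 and open for replicate 2. Cdh2 lies above WT in all 18 induced libraries, Zeb2 is high only with intact mCdx2 or rCdx2 (5.06 to 7.28 CPM), and Cdh2, Snai1 and Vim are lower in mutants with change 3 than in those without.

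By adjusted p under 0.05 and a fold over 2 (edgeR quasi-likelihood test), 6 of the 10 genes were called for the mean of 9 conditions against WT, 4 higher (Cdh2, Snai2, Zeb1, Zeb2) and 2 lower (Cdh3, Vim), where 26.7% of the 16000 genes tested were called, 13.2% higher and 13.5% lower. Their median log2 fold change was 0.21, beside −0.02 for all genes. With mCdx2 alone the rule also called 6 (33.4% of all genes), and with rCdx2 alone 6 (34.5%). These comparisons share the WT libraries, and nothing is read from the counts, since the genes were chosen with this contrast known.

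Among the induced conditions the genes differed, a comparison the choice of genes did not use. The test for any difference among the 9 conditions called 8 of 10 genes, against 56.9% of all genes. The adjusted p was 7.63e-09 for Vim, 1.5e-07 for Zeb2, 6.74e-07 for Cdh1, 3.64e-06 for Snai1 and 5.99e-06 for Cdh2. It was 0.00999 for Cdh3, 0.0247 for Twist1 and 0.046 for Epcam, and it missed the threshold for Snai2 (0.144) and Zeb1 (0.205). Intact mCdx2 and rCdx2 were not distinguished by any of the 10 genes. In edgeR's test 0 members and 3 of 16000 genes (0.0188%) differed between them at adjusted p under 0.05, while 1 member and 857 genes had an unadjusted p under 0.05, and DESeq2 also called 0 members. The member was Cdh3, at 4.42 and 5.14 CPM with mCdx2 and 5.35 and 7.11 CPM with rCdx2 (log2 difference −0.40 ± 0.16, SE; adjusted p = 0.858).

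Each of the 7 mutants differed from rCdx2 in Cdh1, Vim and Zeb2 (edgeR, adjusted over all genes). These comparisons were added after the levels had been seen and share the rCdx2 libraries. Replicate differences correlated among the mutants (0.249 to 0.429) and between mCdx2 and rCdx2 (0.644), but were negatively correlated between these 2 sets. Whether the sets were handled separately is not given, so set and mutation cannot be told apart. They called 3 to 6 of the 10 genes each, beside 44% of all genes for R1, 41.8% for R2, 43.8% for R3, 43.8% for R12, 45.2% for R13, 45.1% for R23 and 46.3% for R123. Cdh1 was higher in 7 of 7 mutants by 0.48 to 0.62 on the log2 scale (adjusted p between 5.03e-07 and 9.39e-06). Vim was higher in 7 of 7 by 0.37 to 1.06 (2.63e-08 to 0.00119). Zeb2, a repressor of Cdh1, was lower in 7 of 7, with log2 differences of −3.63 to −2.34 (6.81e-07 to 1.71e-05). The 4 intact libraries stood apart from all 14 mutant libraries in these 3 genes, lower for Cdh1 and Vim and higher for Zeb2, as 13% and 17.2% of all genes did in those directions. Marker sums split in the same places: trophoblast stem cell markers summed to 236.0 to 283.8 CPM with intact Cdx2 and 150.4 to 167.5 CPM in the mutants, and pluripotent cell markers to 2679 to 3115 CPM and 3402 to 4711 CPM. Such sums follow their highest markers most, and the part of the markers in these differences was not tested. Intact here means the unmutated mouse and rat proteins, and mCdx2 has the same 3 changes as R123. Against rCdx2, the log2 differences of R123 were 0.50 for Cdh1, 0.41 for Vim and −2.66 for Zeb2. Those of mCdx2 were 0.04, 0.02 and −0.02. What sets R123 apart from mCdx2 was not tested. Snai1 differed from rCdx2 in 5 of 7 mutants, Cdh2 in 4, Epcam in 3 and Zeb1 in 1, while Cdh3, Snai2 and Twist1 differed in 0 of 7.

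The mutants split again by amino acid change 3. Cdh2 was at 22.1 to 27.97 CPM in the 6 mutant libraries without change 3 and at 8.12 to 14.9 CPM in the 8 libraries with it. Snai1 was at 2.19 to 4.55 CPM without and 0.893 to 1.82 CPM with the change, and Vim at 91.4 to 103.8 CPM and 59.2 to 74.2 CPM. In all 3 genes the libraries with change 3 lay below those without it and did not overlap them, as 10% of all genes did in that direction and 9.51% in the other. In the mutants with change 3 Cdh2 was still above both WT libraries. The split covers mutants of rCdx2 only. The mouse protein mCdx2, which the paper describes as having all 3 changes, held Cdh2 at 22.4 and 27.0 CPM and Snai1 at 4.31 and 3.45 CPM. These values lay within the ranges of the mutants without change 3. Vim with mCdx2, at 48.9 and 45.8 CPM, lay below both mutant ranges.

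A model of rCdx2 and the 7 mutants that adds the effects of the 3 changes called 4 of 10 genes for change 3, all lower, where 36.6% of 15114 genes were called, 18.4% lower. The log2 effect of change 3 was −1.42 ± 0.14 (SE) for Snai1 (adjusted p = 1.77e-06), −1.01 ± 0.12 for Cdh2 (7.38e-06), −1.42 ± 0.41 for Zeb2 (0.0129) and −0.39 ± 0.14 for Vim (0.045). The calls of Snai1 and Cdh2 held on leaving out each of the 16 libraries in turn. That of Vim was lost without any of 12 of the 16 (adjusted p up to 0.0997), and that of Zeb2 was lost among the 7 mutants alone (−0.54, adjusted p = 0.0672), where Vim's effect was −0.64 (7.17e-09). The replicate numbers did tie the mutant libraries together, and with a term for them the 7 mutants gave −1.49 for Snai1 (adjusted p = 7.35e-10), −1.11 for Cdh2 (3.36e-13), −0.64 for Vim (3.34e-15) and −0.54 for Zeb2 (0.0613), with a call for Zeb1 added (0.12, 0.02). Changes 1 and 2 gave 0 calls among the members and 0 among all genes in edgeR, with 2 members and 1996 genes for change 1, and 1 member and 1570 genes for change 2, at an unadjusted p under 0.05. The model includes rCdx2, from which R1 differed in 44% and R2 in 41.8% of all genes. The SE of change 1 was 0.14 for Vim and 0.07 for Cdh1, beside 0.05 and 0.03 among the 7 mutants alone. The 0 calls are therefore not read as a lack of effect. Among the 7 mutants alone the lowest adjusted p of a member was 0.562 for change 1 and 0.432 for change 2 (edgeR).

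Cdx2 itself, counted on the mouse gene, was lower in the mutant libraries with change 3 than in those without it. Among the mutants without it, Cdx2 was at 144.7 to 146.5 CPM in replicate 1 and 60.6 to 68.8 CPM in replicate 2, and among those with it at 61.9 to 94.4 CPM and 37.2 to 44.3 CPM. Within replicate 1, Cdh2 was at 23.97 to 27.97 CPM without the change and 11.8 to 14.9 CPM with it, and within replicate 2 at 22.1 to 25.6 CPM and 8.12 to 13.99 CPM. Among the mutants Cdx2 and Cdh2 were thus both lower with change 3 in each replicate. The part of the Cdx2 level in the effects of change 3 was not tested.

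**Figure D2:**
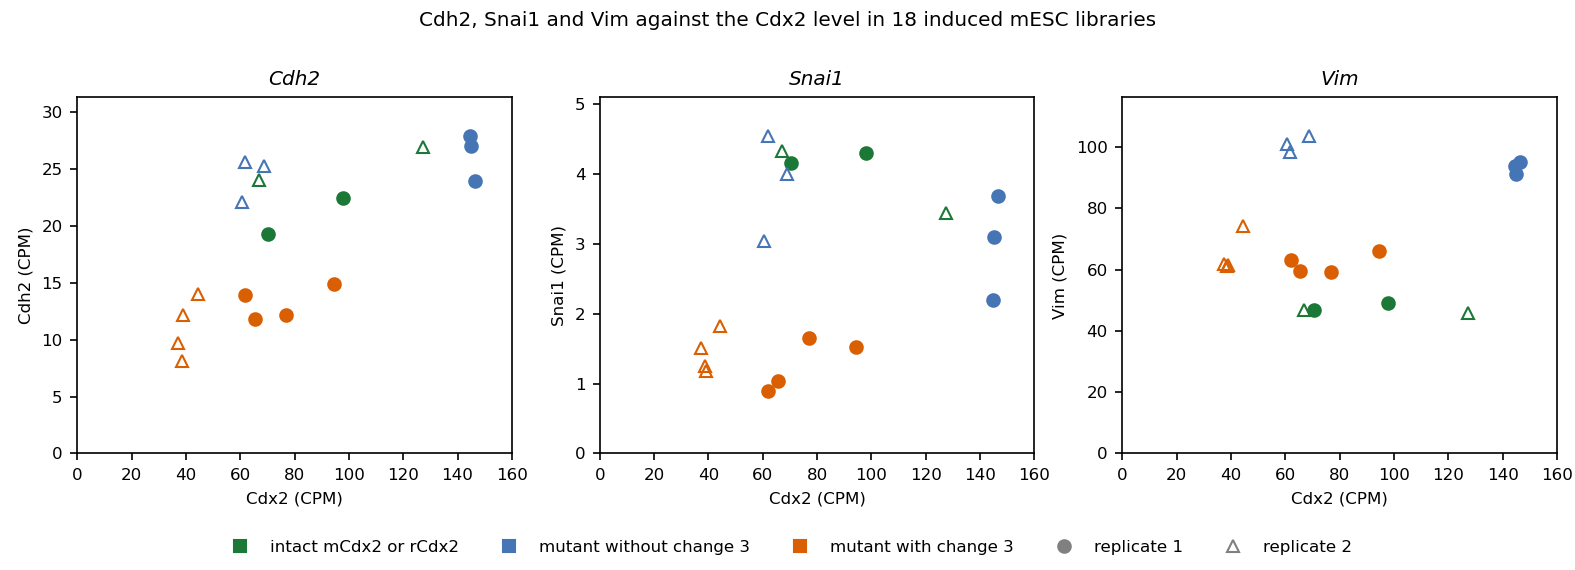
Cdh2, Snai1 and Vim (y axis, CPM) against Cdx2 (x axis, CPM) in the 18 induced mESC libraries, 1 point per library. Colours mark intact mCdx2 or rCdx2, mutants without change 3 and mutants with it. Within each replicate the mutants with change 3 lie to the left of and below those without it, with Cdh2 at 11.8 to 14.9 CPM against 23.97 to 27.97 CPM in replicate 1.

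In RMES cells Cdh2 moved in the other direction. On the mouse allele it was at 168.7 and 172.9 CPM in the libraries labelled WT, 25.4 CPM with mCdx2 and 24.5 CPM with rCdx2 (log2 fold change −2.77 ± 0.06, SE). On the rat allele it was at 19.0 and 19.3 CPM and then at 11.6 and 10.7 CPM (−0.78 ± 0.11). Both induced libraries were below both labelled WT on each allele, as was the case in either direction for 91.3% of all genes on each allele, since 2 libraries against 2 overlap rarely. Marker sums on the mouse allele moved beside it. Pluripotent cell markers went from 5661 and 5768 CPM to 2163 and 2095 CPM (6 of 8 lower), and trophoblast stem cell markers from 209.3 and 216.1 CPM to 326.8 and 319.8 CPM (4 of 7 tested higher). The primitive endoderm sum went from 231.8 and 238.7 CPM to 50.6 and 53.0 CPM, although 5 of its 7 genes were higher and 1 lower. Their part in the Cdh2 values was not tested. The starting levels of Cdh2 were unlike, in tables normalized separately. Per kb of transcript it was at 0.605 CPM in WT mESCs. In the RMES libraries labelled WT it was at 21.2 CPM on the mouse allele and 4.41 CPM on the rat allele. After induction the mouse allele, at 25.4 and 24.5 CPM, lay within the range of the 18 induced mESC libraries (8.12 to 27.97 CPM).

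Cdh3 also went opposite ways in the 2 cell types. It was at 0.616 and 1.003 CPM on the RMES mouse allele of the libraries labelled WT and at 7.29 CPM with mCdx2 and 6.86 CPM with rCdx2 (3.11 ± 0.23). The rat allele went from 0.695 and 1.53 CPM to 14.5 and 15.0 CPM (3.71 ± 0.22). On the mouse genome the 2 induced RMES libraries thus lay within the range of the 18 induced mESC libraries (4.42 to 8.54 CPM), although the tables were normalized separately. Zeb1 was at 45.0 and 47.2 CPM on the mouse allele of the libraries labelled WT, 28.02 CPM with mCdx2 and 31.5 CPM with rCdx2 (−0.63 ± 0.08), and on the rat allele it went from 18.6 and 20.8 CPM to 26.2 and 31.1 CPM (0.54 ± 0.10).

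Vim, Epcam and Snai2 kept in RMES cells the direction they had in mESCs, and Zeb2 was higher, as it was in mESCs with intact Cdx2. Vim was at 118.4 and 126.8 CPM on the mouse allele and fell to 34.9 and 38.9 CPM (−1.73 ± 0.07), and the rat allele went from 6.47 and 8.77 CPM to 1.79 and 3.00 CPM (−1.67 ± 0.23). Here the fibroblast marker sum was 171.2 to 178.9 CPM before and 103.5 to 104.5 CPM after on the mouse allele. Most of that sum was Fbln1 (146.7 and 74.95 CPM, means), while Pdgfrb went from 1.70 to 11.9 CPM, and of 8 markers tested 3 were higher and 3 lower. Their part in the Vim values was not tested. Epcam went from 318.4 and 332.0 CPM to 187.9 and 188.1 CPM on the mouse allele (−0.79 ± 0.06). Snai2 went from 2.43 and 3.04 CPM to 5.17 and 4.21 CPM on the mouse allele (0.77 ± 0.20), and from 0.219 and 0.367 CPM to 3.12 and 1.96 CPM on the rat allele (3.08 ± 0.39). Zeb2 had 1 and 3 mouse counts in the libraries labelled WT and 46 and 64 in the induced ones, a ratio of 22.4 (exact 95% interval 8.51 to 83.7, counting error only). Its rat counts were 3 and 3 before and 38 and 64 after, a ratio of 12.9 (5.71 to 35.9).

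Cdh1 had the smallest log2 fold change of the 10 genes on the rat allele and a small one on the mouse allele. It went from 213.0 and 214.5 CPM to 261.4 and 273.8 CPM on the mouse allele (0.32 ± 0.06) and from 461.1 and 469.2 CPM to 434.1 and 440.3 CPM on the rat allele (−0.09 ± 0.06). Snai1 and Twist1 had log2 fold changes of −0.25 ± 0.16 and 0.22 ± 0.39 on the mouse allele and 0.42 ± 0.21 and 0.62 ± 0.36 on the rat allele. With the same rule as in mESCs, 4 of 10 genes were called on the mouse allele (Cdh3 and Zeb2 higher, Cdh2 and Vim lower), beside 44.5% of 16887 genes (28.3% higher and 16.1% lower). On the rat allele 4 were called (Cdh3, Snai2 and Zeb2 higher, Vim lower), beside 42.5% of 14627 genes (28.3% higher and 14.2% lower). As in mESCs, nothing is read from these counts.

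**Figure D3:**
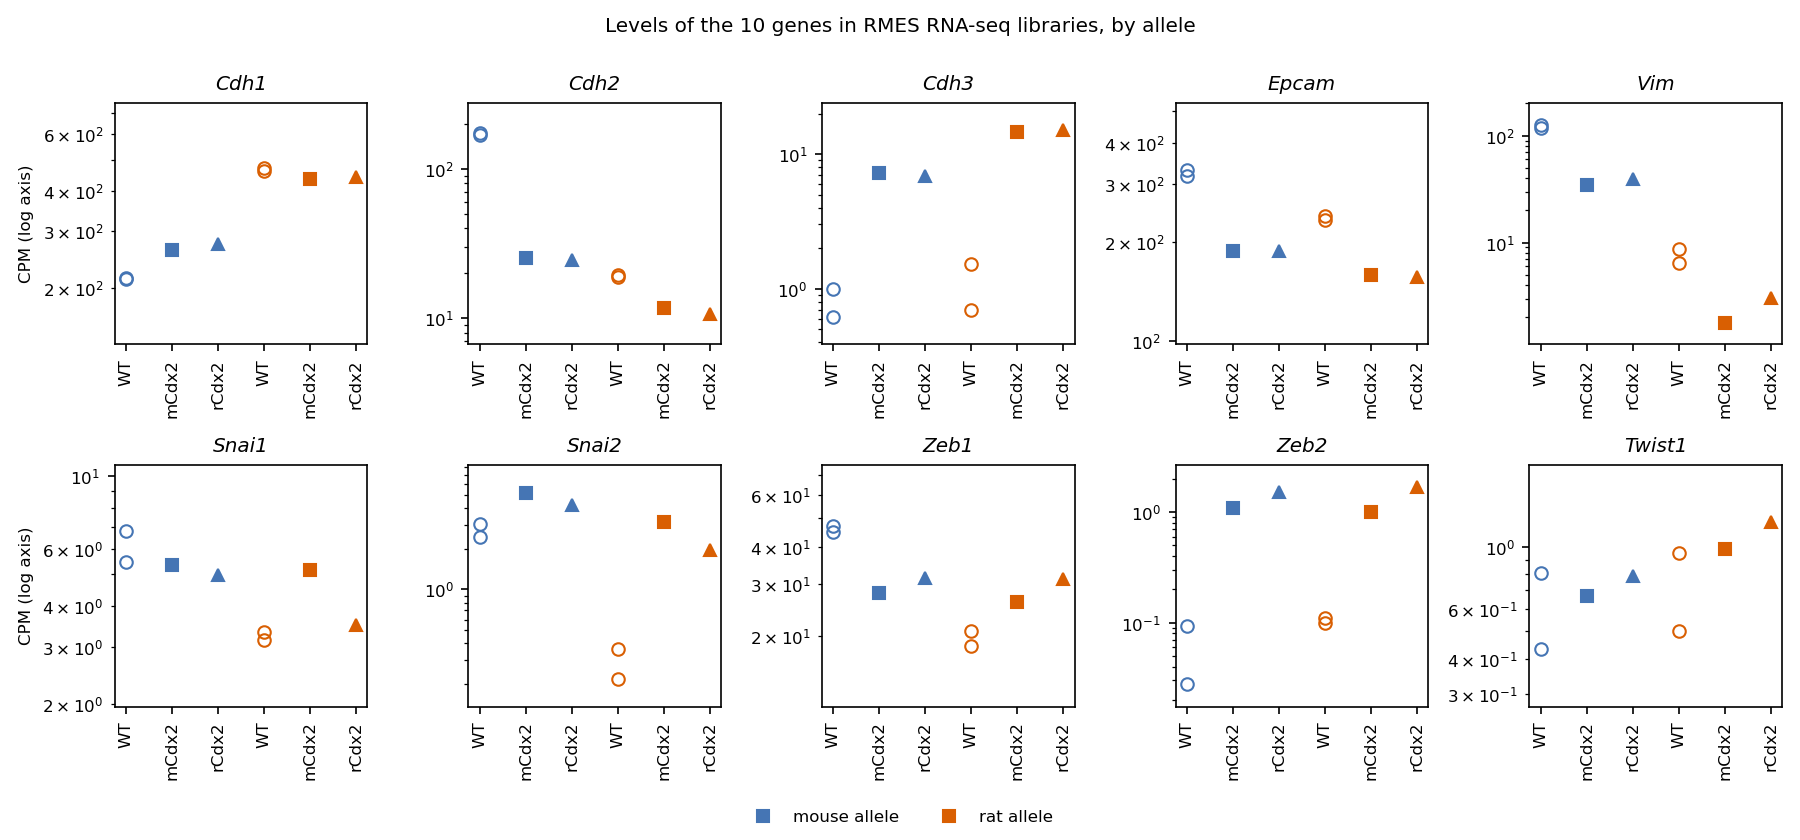
Level of each gene in the 4 RMES RNA-seq libraries (CPM, log axis, scaled per panel), on the mouse allele (blue) and the rat allele (orange). Open circles are the 2 libraries labelled WT, squares mCdx2 and triangles rCdx2, 1 library each. Cdh2 is lower after induction on both alleles, from 168.7 and 172.9 CPM to 25.4 and 24.5 CPM on the mouse allele, and Cdh3 is higher with either protein on both.

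**Figure D4:**
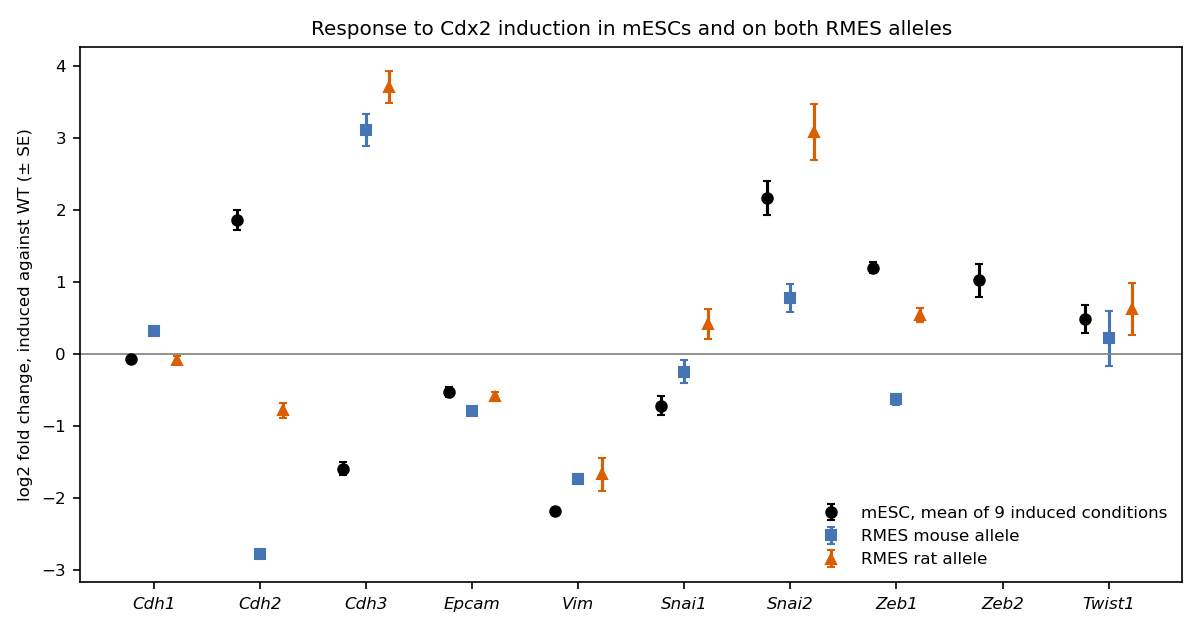
Log2 fold change of induced against WT cells (y axis, ± SE of the fit) for each gene, in mESCs (mean of 9 conditions), on the RMES mouse allele and on the RMES rat allele. Zeb2 is left out for RMES cells, where the libraries labelled WT held 1 to 3 counts. Cdh2 is at 1.86 in mESCs and at −2.77 and −0.78 on the RMES alleles, and Cdh3 at −1.59, 3.11 and 3.71.

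Because both alleles lie in the same nuclei, the difference between their responses was tested in a single model with a term for each library. It called 6 of 10 genes, beside 62.2% of 13605 genes paired by symbol. The response of the Cdh2 mouse allele lay below that of the rat allele by a log2 difference of −2.002 ± 0.09 (SE; edgeR adjusted p = 6.68e-19). Zeb1 differed by −1.18 ± 0.10 (7.26e-12) and Snai2 by −2.31 ± 0.41 (1.17e-05), with the mouse allele below the rat allele in response. Cdh1 differed the other way by 0.41 ± 0.05 (4.76e-09), and Epcam by −0.21 ± 0.05 (0.00103). Snai1 differed by −0.65 ± 0.24 (0.0165), a call that was lost without the first library labelled WT (adjusted p = 0.157) or without the mCdx2 library (0.202). Cdh3 (−0.61, adjusted p = 0.0933), Vim (−0.06, 0.797), Zeb2 (0.78, 0.561) and Twist1 (−0.41, 0.569) missed the threshold.

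Whole chromosomes moved beside some of these genes. Genes of mouse chromosome 16, where Snai2 lies, had a median log2 response of −0.78 on the RMES mouse allele and a median allele difference of −0.77. Chromosome 18, which holds Cdh2 and Zeb1, had medians of −0.16 and −0.25, and the chromosomes of the other members lay between 0.01 and 0.12 in both measures. The part of these shifts in the allele differences of Cdh2 (−2.002), Zeb1 (−1.18) and Snai2 (−2.31) was not tested.

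Open chromatin in mESCs was compared between 1 WT and 1 mCdx2 library, with 6109353 and 8277850 reads in peaks, so it has no replicate check and no test. Reads were scaled to the mean of the 2 totals. Of 72 ATAC peaks within 30 kb of the 10 gene starts, 16 passed 2-fold with at least 40 scaled reads, 6 more open and 10 less open with mCdx2. Over all 122350 peaks, 23.9% passed, and 9.56% were more open and 14.3% less open by this rule. The split depended on the scaling: without it, 15 near the members were more open and 6 less open.

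The Cdh1 locus held the most of these, with 7 of its 17 peaks less open, all 7 in introns between 3551 and 26180 bp past the gene start, and 0 more open. The peak at 3551 bp went from 118.9 to 15.6 scaled reads (log2 −2.85) and that at 18451 bp from 101.3 to 15.6 (−2.62). The peak over the Cdh1 start itself went from 270.8 to 146.0 (−0.89), short of 2-fold. None of the 7 overlapped a Cdx2 ChIP peak, and the share of all less open peaks that did so is not given here. At Cdh3 a peak 5390 bp past the start, in an intron, went from 162.5 to 49.5 scaled reads (−1.69).

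Peaks that were more open with mCdx2 overlapped Cdx2 ChIP peaks at Cdh2, Epcam and Vim. The paper reports that mCdx2 bound mostly at regions that opened, and the share over all more open peaks is not given here. The overlap is therefore not read as particular to these genes. With at least 100 scaled reads, 3 more open and 9 less open peaks were left near the members. The Cdh2 peak at −1976 bp from the start went from 5.9 to 44.3 scaled reads (log2 2.72) and overlapped a ChIP peak in both cell types. The Epcam peak at −10101 bp went from 3.5 to 97.3 (4.44) and covered the printed Epcam window, with a ChIP peak in both cell types. A second Epcam peak, 4717 bp past the start, went from 34.1 to 72.1 (1.06) over an mESC ChIP peak. The Vim peak at −15197 bp went from 14.1 to 29.5 (1.01) and overlapped the printed Vim window, while another at −1423 bp went from 97.7 to 34.8 (−1.47). The peak over the Twist1 start went from 68.3 to 179.9 (1.38), with no ChIP peak. Within 30 kb of the start Epcam also had 1 less open peak, and Snai1 had 1 more open peak and 0 ChIP peaks. Snai2, Zeb1 and Zeb2 had 0 peaks past 2-fold within 30 kb of the start.

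Cdx2 ChIP peaks in mESCs lay within 30 kb of 8 of the 10 starts, 17 peaks in all, with none at Snai1 or Zeb1, and 72.4% of 21924 protein-coding genes had such a peak. In RMES cells, on the mouse genome, 13 peaks lay near 9 of 10 genes, all but Snai1, beside 63.7% of genes. The ChIP columns were matched to mCdx2 and rCdx2 by the letters M and R in their names, and the label of the rCdx2 library of mESCs also names mCDX2 ChIP, so the order of each pair of values below is less sure than the values. The strongest peak within 30 kb lay upstream of Cdh2 at −1806 bp, with 199.6 scaled reads for mCdx2 and 219.5 for rCdx2 in mESCs and 120.9 and 140.6 in RMES cells. The intronic Zeb2 peak had 186.3 and 145.3 in mESCs and 80.0 and 77.7 in RMES cells. The Snai2 peak at −23863 bp had 65.3 and 61.5, and the Epcam peak 58.6 and 74.2, in mESCs. The peak upstream of Cdh2 was thus present in both cell types and in all 4 ChIP libraries, while the Cdh2 level rose in mESCs and fell on the mouse allele of RMES cells.

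The window of 30 kb leaves out most of the long genes. Over gene bodies plus 10 kb, Zeb1 had 10 mESC ChIP peaks, Zeb2 11 and Cdh2 16. The Zeb1 peak 54253 bp into the gene had 282.8 and 264.1 scaled reads and lay over an ATAC peak that went from 9.4 to 38.2 (log2 1.91). A Cdh2 peak 185835 bp into the gene had 266.8 and 281.1 and lay over one that went from 24.7 to 113.8 (2.16), and the strongest Zeb2 peak, at 63431 bp, had 256.3 and 280.0 and no ATAC peak. Snai1 had 0 ChIP peaks in either window.

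**Figure D5:**
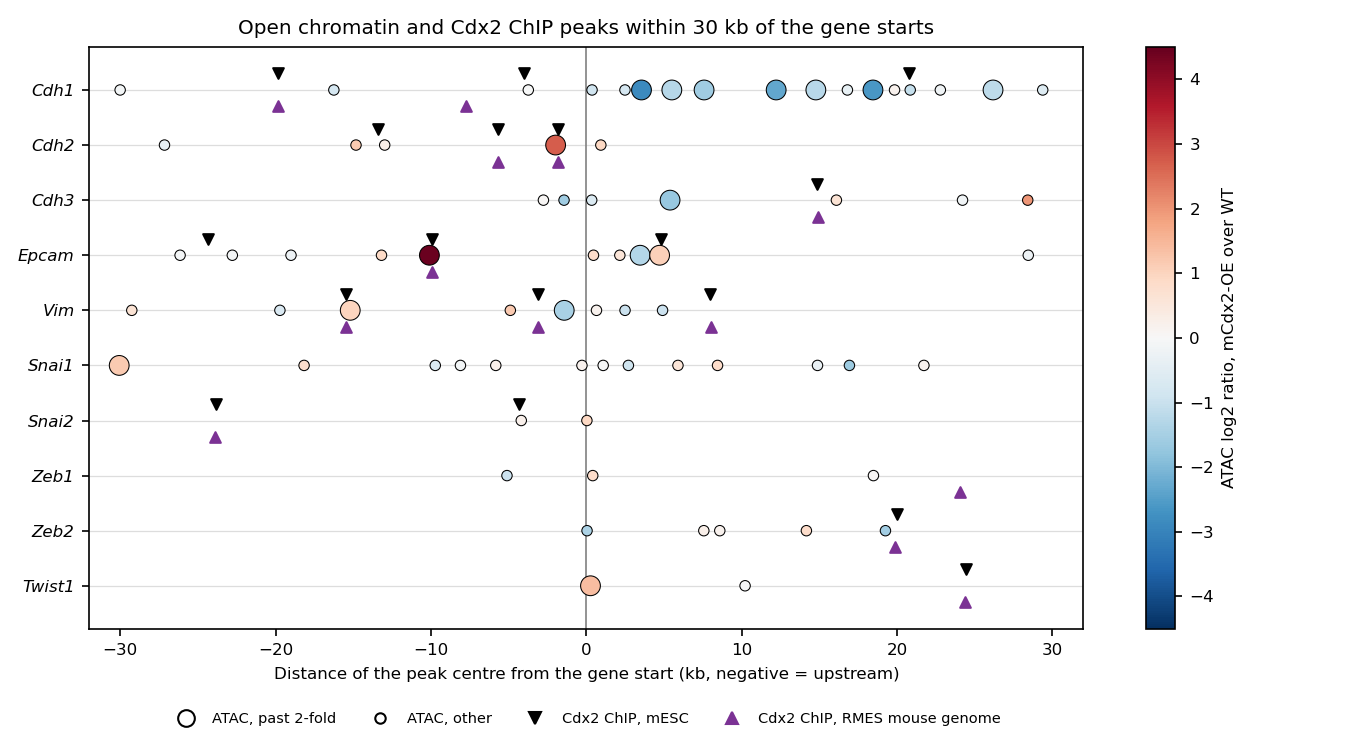
Peaks within 30 kb of each gene start, by distance from the start in kb (x axis, negative upstream). Circles are mESC ATAC peaks, coloured by the log2 ratio of the mCdx2 library to WT and larger past 2-fold, and triangles are Cdx2 ChIP peaks in mESCs (black) and RMES cells (purple). The 7 large blue circles at Cdh1 lie 3.55 to 26.2 kb past its start, and the strongest gain, 4.44, lies upstream of Epcam under a ChIP peak.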

How the data were processed

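RNA-seq, ATAC-seq and ChIP-seq files were read as counts deposited by the authors. Per the labels and methods, RNA reads were aligned with STAR 2.7.0d to mm10 (for RMES cells, mm10 or rn6, by edit distance) and counted strand-aware per gene. ATAC reads (trimmed with fastp) and ChIP reads (cutadapt 2.6) were aligned with Bowtie2 2.3.4.3, duplicates were removed with Sambamba (ATAC) or Picard 2.6.0 (ChIP), and MACS2 peaks were called on merged reads. mESC replicates 1 and 2 were counted in separate runs, joined here over 19919 shared genes.

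Genes passing filterByExpr were fitted with edgeR 4.0.16 (R 4.3.3; TMM, quasi-likelihood test, Benjamini-Hochberg adjustment over all genes), in 1 model of the 20 mESC libraries, an additive model of changes 1, 2 and 3, 1 model per RMES allele with mCdx2 and rCdx2 pooled as induced, and an allele model with a library term. The scripts were tested on simulated data. A call was an adjusted p under 0.05, and for induction also a fold over 2. Reads in peaks were brought to a common total, and 1 was added before taking log2. Gene positions came from GENCODE on GRCm38. The members and gene lists were chosen with earlier results of these data known. Genes were named because they are members, with list genes named by a mean count over 50 and the largest called changes. Alternatives were DESeq2 1.42.0, its size factors, no filter, other fold thresholds, a replicate block, and leaving out libraries. Rat-genome peaks were not analysed here.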

Additional observations from a re-analysis of the deposited data

Results flagged for a closer look

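The alleles of 6 genes answered Cdx2 induction differently in RMES cells by the test of the difference itself (edgeR, mouse minus rat, log2). The values were 0.41 for Cdh1, −2.002 for Cdh2, −0.21 for Epcam, −0.65 for Snai1, −2.31 for Snai2 and −1.18 for Zeb1. Of all genes tested 62.2% differed.

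For 3 genes, Cdh2, Cdh3 and Zeb1, the 2 cell types moved in opposite directions, each against its own libraries labelled WT. All induced mESC libraries lay on one side of the mESC WT. On the mouse allele both induced RMES libraries lay on the other side of the RMES libraries labelled WT. The mESC response minus the RMES mouse-allele response was 4.64 for Cdh2, −4.70 for Cdh3 and 1.83 for Zeb1 (log2). This difference was not tested, because the cell types were counted in separate tables, and the opposite direction of Cdh2 was known when the genes were chosen. The RMES libraries labelled WT held Cdx2 reads, and the part of that level in these differences was not tested.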

How the results depend on the processing

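With interaction terms among the 3 amino acid changes, the calls over the 10 genes and 3 changes went from 4 to 10. Added were Cdh1 (0.10), Vim (0.22) and Zeb2 (−0.71) for change 1, Vim (0.22) for change 2, and Cdh1 (0.19) and Twist1 (−0.51) for change 3. With a replicate block the counts were 6 for mESC induction, 8 among the 9 conditions, 0 for mCdx2 against rCdx2 and 3 for the changes, where Vim was lost (adjusted p = 0.0518). Replicate differences correlated by over 0.1 in 22 of 45 pairs of conditions (range −0.212 to 0.644): all 21 pairs of mutants (0.249 to 0.429) and mCdx2 with rCdx2. The numbers, which also mark the counting run, are thus taken to pair the mutants but not all conditions. The 7 mutants alone gave 3 calls, and 4 with the replicate block, a fit added after seeing the data. Without a fold threshold 8 genes were called on the RMES mouse allele and 7 on the rat allele, and with a fold over 1.5, 7 on the mouse allele. Cdx2 ChIP peaks numbered 17 by the gene starts, 48 over gene bodies plus 10 kb (16 of them at Cdh2) and 7 with at least 100 scaled reads. Leaving out single libraries gave 5 to 6 calls for mESC induction, 6 to 8 among the 9 conditions, 0 for mCdx2 against rCdx2, 3 to 4 for the changes, 4 for the RMES mouse allele, 4 to 5 for the rat allele and 5 to 6 for the allele difference. Where this left 1 RMES library in a group, it was assumed to vary like the other group. Of 1210 single-gene results under the alternatives, 1130 kept direction and call, 54 moved by over their error, 17 lost a call and 9 gained one, and 0 reversed.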

Other observations

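Other genes of cell adhesion moved in both directions in mESCs (mean of 9 conditions against WT, log2 ± SE, with lists that were drawn up with earlier results known). Of 17 epithelial genes tested, 5 were called higher and 5 lower. Dsc2 and Dsp, which build desmosomes, were higher by 3.60 ± 0.12 and 2.36 ± 0.09, and Esrp1, a regulator of epithelial splicing, was at −4.30 ± 0.11. Of 16 mesenchymal genes, 4 were higher and 3 lower, the latter being the smooth muscle genes Acta2 (−3.24 ± 0.15) and Tagln (−2.64 ± 0.15) and the membrane protease Mmp14 (−2.29 ± 0.09). Of 10 genes whose products bind cadherins or build junctions, 0 were higher and 1, the nectin gene Nectin1, was lower (−1.67 ± 0.12). Of 12 signalling genes upstream of the transition, 2 were higher and 1 lower, with Tgfbr2 at 2.08 ± 0.14 and the Notch ligand Jag1 at −1.25 ± 0.08. These counts stand beside 13.2% of all genes higher and 13.5% lower. The fibroblast marker sum fell with them, and its part was not tested.

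The ratio of Cdh1 to Cdh2 per kb of transcript was 148.8 and 171.8 in WT mESCs, 20.9 to 28.8 with intact Cdx2, 28.5 to 36.0 in mutants without change 3 and 54.9 to 103.3 in mutants with it. On the RMES mouse allele it was 2.17 to 2.24 in the libraries labelled WT and 18.2 and 19.7 after induction, and on the rat allele 23.6 to 24.4 and then 36.9 and 40.8.

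Over the 24 RNA-seq libraries and 12291 genes, the levels most like those of Cdh2 were Irak1 (Pearson r = 0.974) and Mfn1 (0.964), and those most like Cdh1 were Strada (0.984) and Sult6b1 (0.983). The points share libraries and fall into an mESC and an RMES cluster, so these are descriptions only.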
